A study of Mus musculus with 10 samples.

Results

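The genes described here are 10 genes of liver sinusoidal endothelial cells, the cells that line the capillaries of the liver. They were chosen by symbol, as Lyve1, Clec4g, Pecam1, Cdh5, Kdr, Tek, Oit3, Gpr182, Eng and Egfl7, and all 10 were found among the 24411 genes of the count table. Expression was measured by RNA sequencing of whole liver homogenate from male C57BL/6 mice (strain background C57Bl6/J). The labels describe them as 8 weeks old at the start, with 20 weeks of biweekly injections into the peritoneum. The Mboat7 ASO group (libraries 6 to 10) received an antisense oligonucleotide (ASO) against Mboat7, and its tissue is labelled severe fatty liver. The control ASO group (libraries 1 to 5) received an ASO without a target, and its tissue is labelled normal liver. Both groups were fed a high fat diet and were dosed at 12.5 mg/kg, and neither was free of ASO. More than a single Mboat7 ASO was available to the study, and which of them these mice got is not in the labels. Such ASOs act mainly in liver, fat and reticuloendothelial cells, and which cells of the liver lost Mboat7 was not measured here.

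Sinusoidal endothelial cells differ from other vessel linings in that they are pierced by fenestrae, lack an organized basement membrane, and take up waste molecules from portal blood through scavenger receptors. Like other endothelial cells they are joined by VE-cadherin and PECAM1, and they depend on growth signals that reach them from hepatocytes and stellate cells, among them VEGF, angiopoietins and bone morphogenetic proteins. In chronic liver injury they can lose fenestrae and gain features of continuous capillaries, a change known as capillarization. The 10 genes span these roles: Lyve1, Clec4g, Oit3 and Gpr182 are enriched in the sinusoid, Pecam1 and Cdh5 encode junction proteins of all endothelium, Kdr, Tek and Eng encode receptors, and Egfl7 encodes a secreted protein.

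The sequence before the start sites of these genes is given where a RefSeq window (GRCm38.p6, 250 bases before to 50 bases after the start) was matched. That was so for 5 of the 10 genes in 7 windows, of which 3 belonged to Egfl7. Those of Clec4g (chr8:3720602-3720901, minus strand), Eng (chr2:32646345-32646644, plus strand), Tek (chr4:94739039-94739338, plus strand) and Kdr (chr5:75978406-75978705, minus strand) are written 5′ to 3′ on the strand of the gene. Capitals mark CAGGAA or its reverse complement TTCCTG, letters recognised by ETS family factors, AGATAA or TTATCT, letters recognised by GATA factors, and GGGCGG or CCGCCC, the GC box. No capitals of different motifs overlapped in the windows shown.
Clec4g: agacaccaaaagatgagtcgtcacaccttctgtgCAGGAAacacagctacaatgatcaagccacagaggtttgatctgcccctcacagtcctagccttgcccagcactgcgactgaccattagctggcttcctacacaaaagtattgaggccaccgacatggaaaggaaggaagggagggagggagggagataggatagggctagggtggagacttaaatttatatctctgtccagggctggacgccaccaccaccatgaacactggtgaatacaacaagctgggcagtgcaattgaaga
Eng: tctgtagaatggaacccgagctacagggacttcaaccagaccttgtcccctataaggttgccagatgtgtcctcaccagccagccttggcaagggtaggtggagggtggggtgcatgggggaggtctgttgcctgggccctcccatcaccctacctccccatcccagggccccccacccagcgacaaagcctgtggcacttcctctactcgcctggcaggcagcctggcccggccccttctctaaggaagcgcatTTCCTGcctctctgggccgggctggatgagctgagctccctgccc
Tek: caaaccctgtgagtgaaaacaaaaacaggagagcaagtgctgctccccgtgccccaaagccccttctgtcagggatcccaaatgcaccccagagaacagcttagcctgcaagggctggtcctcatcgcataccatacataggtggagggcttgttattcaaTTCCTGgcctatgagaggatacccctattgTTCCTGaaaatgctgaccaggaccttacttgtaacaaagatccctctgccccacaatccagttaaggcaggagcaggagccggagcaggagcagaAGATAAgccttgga
Kdr: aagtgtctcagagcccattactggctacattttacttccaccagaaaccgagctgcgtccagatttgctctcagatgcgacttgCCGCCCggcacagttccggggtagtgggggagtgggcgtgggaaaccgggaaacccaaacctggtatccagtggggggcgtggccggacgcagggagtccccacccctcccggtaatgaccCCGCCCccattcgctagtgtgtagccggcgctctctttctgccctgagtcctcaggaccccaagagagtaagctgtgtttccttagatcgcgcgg

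The ETS letters stood in 5 of the 7 windows, against 30.6% of all 32851 windows of the same length. By gene they stood in 4 of the 5, all but Kdr, and the share over all genes was not counted. Egfl7, with 3 windows, had more places for a match than the other genes. The GATA letters stood only in the window of Tek, against 11.2% of all windows, and the GC box stood in the window of Kdr and in 1 of the windows of Egfl7, against 35.7% of all windows. These are matches of letters and no measure of binding.

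Knockdown was checked first. Mboat7, which encodes an enzyme that acylates lysophosphatidylinositol, had 92, 101, 130, 88 and 60 counts in Mboat7 ASO libraries 6 to 10, against 1105, 1053, 1016, 1069 and 951 counts in control ASO libraries 1 to 5. The groups were far apart, as labelled. Library totals ran between 26232977 and 28791798 counts in Mboat7 ASO livers and between 25153235 and 27912213 counts in control ASO livers. Libraries of a group differed by more than sampling noise (for pairs, chi-square over its degrees of freedom was 20.1 to 79.2), so none was treated as the same library deposited again, which does not show that they came from separate animals. Since no label says outright that they came from different mice, the p-values describe only how these samples spread, which may be technical. All 10 genes passed the filter on low counts, which 12609 genes passed.

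Across the 10 genes, 9 rose in Mboat7 ASO livers and none fell, at a false discovery rate (FDR) of 0.05 by edgeR's quasi-likelihood test with Benjamini-Hochberg adjustment over all genes. Of all genes tested, 21.2% rose and 17.3% fell. The median log2 fold change (Mboat7 ASO over control ASO) was 0.64 for the 10 genes, against 0.01 for all genes. The folds lay between 1.27 for Egfl7, which did not pass, and 1.81 for Pecam1, so none of the 10 rose by more than 2-fold, a size passed by 6.43% of all genes. Levels below are normalized CPM (counts scaled to a common library size by the library total and its upper quartile factor). In whole liver RNA, more cells of a type and more RNA per cell cannot be told apart.

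**Figure D1:**
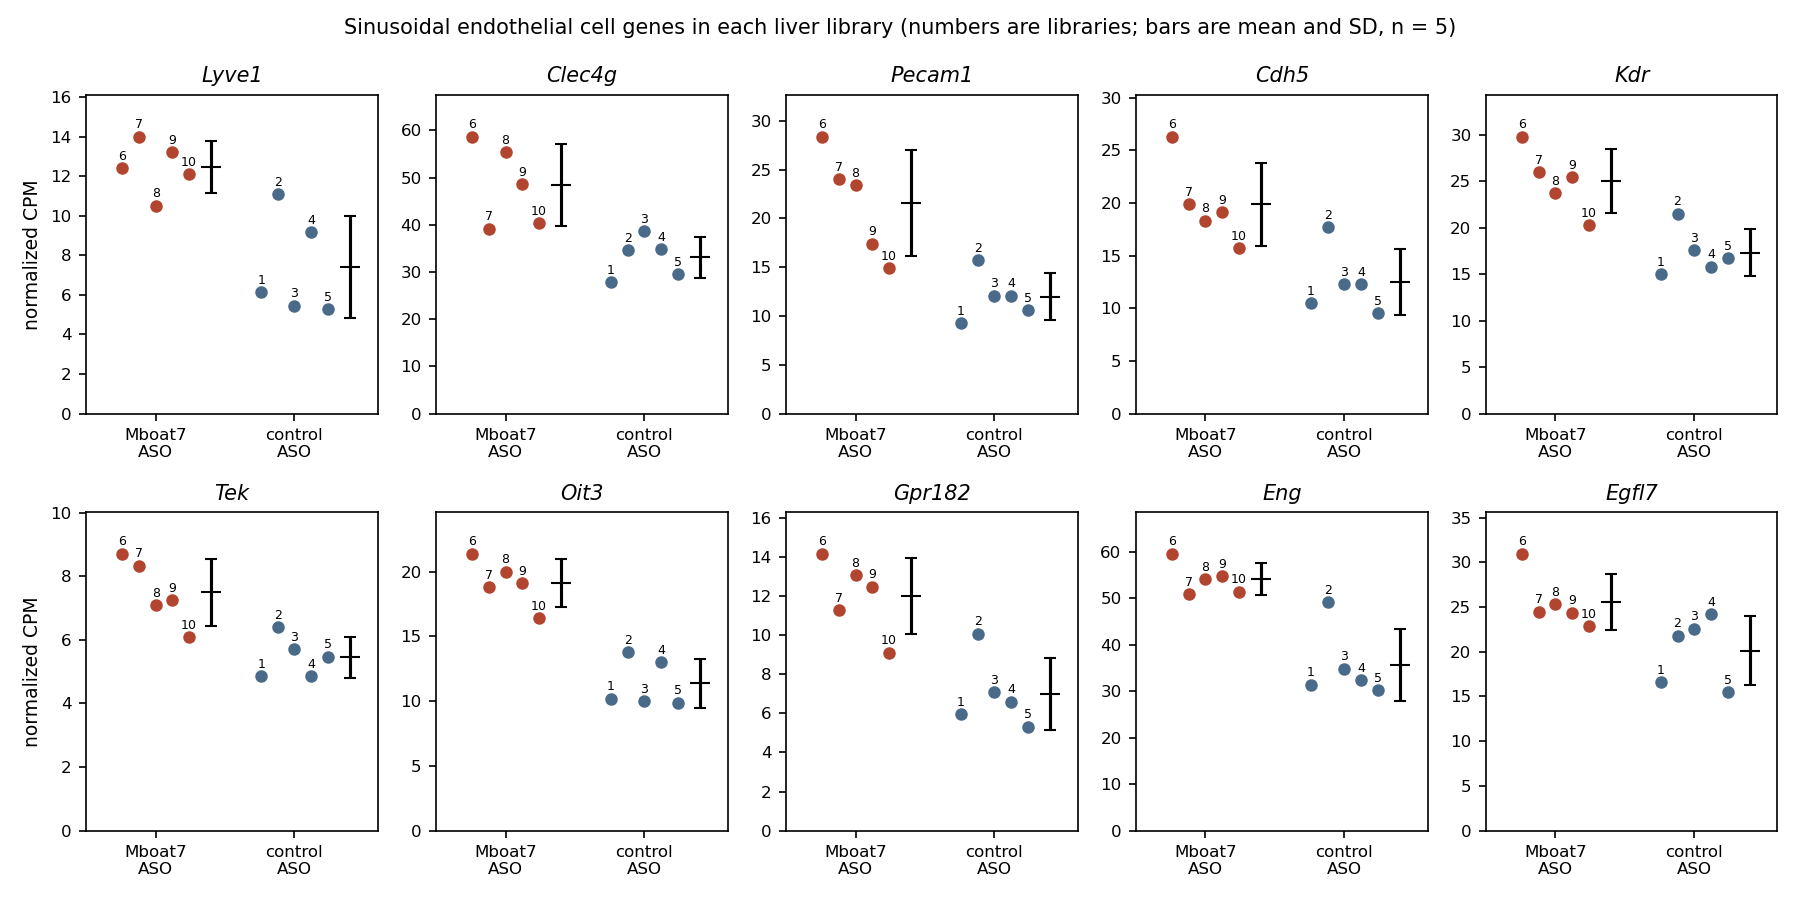
Normalized CPM of each of the 10 genes in each library, Mboat7 ASO on the left and control ASO on the right of every panel, with numbers naming the libraries and black bars giving mean and SD (n = 5). The 5 Mboat7 ASO libraries lie above all control ASO libraries for Clec4g, Oit3 and Eng, and control ASO library 2 is the highest control for 8 of the 10 genes.

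Lyve1 encodes a receptor for hyaluronan that is kept by sinusoidal and lymphatic endothelium. It had 12.4, 14, 10.5, 13.2 and 12.1 CPM in Mboat7 ASO libraries 6 to 10, against 6.15, 11.1, 5.45, 9.15 and 5.28 CPM in control ASO libraries 1 to 5. The Mboat7 ASO libraries were close together, whereas the control ASO libraries fell into a low trio and a higher pair, and only library 2 of the controls reached into the range of the Mboat7 ASO group. The means were 12.4 ± 1.32 CPM in Mboat7 ASO livers and 7.43 ± 2.59 CPM in control ASO livers (SD, n = 5 each), with a log2 fold change of 0.74 ± 0.20 (SE, edgeR FDR 0.0141).

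Clec4g encodes LSECtin, a C-type lectin of the sinusoidal surface. It had 58.7, 39.2, 55.4, 48.6 and 40.3 CPM in Mboat7 ASO libraries 6 to 10, against 27.9, 34.6, 38.7, 34.8 and 29.5 CPM in control ASO libraries 1 to 5. Every Mboat7 ASO library was above every control ASO library, but the lowest was only 1.01 times the highest control. The log2 fold change was 0.55 ± 0.13 (SE, edgeR FDR 0.00774), a 1.46-fold rise. A non-coding antisense gene shares 146 bases of its exons, and the sources used here do not give the strand that was counted.

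Oit3 encodes a secreted protein with a zona pellucida domain whose expression in liver marks the sinusoid. It had 21.4, 18.8, 20, 19.1 and 16.4 CPM in Mboat7 ASO libraries 6 to 10, against 10.2, 13.8, 10, 13 and 9.88 CPM in control ASO libraries 1 to 5. This was the widest separation among the 10 genes, with the lowest Mboat7 ASO library 1.19 times the highest control ASO library. Oit3 also had the lowest p of the 10, at a log2 fold change of 0.75 ± 0.11 (SE, edgeR FDR 0.00202).

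Gpr182 encodes an atypical chemokine receptor of sinusoidal and lymphatic endothelium. It had 14.2, 11.3, 13.1, 12.5 and 9.11 CPM in Mboat7 ASO libraries 6 to 10, against 5.96, 10.1, 7.09, 6.61 and 5.32 CPM in control ASO libraries 1 to 5. The groups overlapped through library 10 at the low end of the Mboat7 ASO group and library 2 at the high end of the controls. Its log2 fold change was 0.78 ± 0.17 (SE, edgeR FDR 0.00641). The annotation has 74 bases of its exons shared with Zbtb39 on the opposite strand.

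Pecam1 encodes CD31, a junction protein of endothelium that is also carried by platelets and many leukocytes. It had 28.4, 24, 23.4, 17.4 and 14.9 CPM in Mboat7 ASO libraries 6 to 10, against 9.25, 15.7, 12.1, 12.1 and 10.6 CPM in control ASO libraries 1 to 5. Libraries 6, 7 and 8 stood above libraries 9 and 10, and library 10 lay just below control ASO library 2. The log2 fold change, 0.85 ± 0.18 (SE, edgeR FDR 0.00585), was the highest of the 10 estimates. Libraries 6, 7 and 8 were also those with the highest summed CPM of 12 pan-leukocyte markers (538, 417 and 437 CPM, against 213 in library 9 and 245 in library 10) and of 9 platelet and megakaryocyte markers (15.7, 15.1 and 12.8 CPM, against 5.87 in library 9 and 4.21 in library 10). The part of those cells in the Pecam1 level was not tested.

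Cdh5 encodes VE-cadherin, the adhesion molecule of endothelial junctions. It had 26.3, 19.9, 18.3, 19.1 and 15.7 CPM in Mboat7 ASO libraries 6 to 10, against 10.5, 17.7, 12.3, 12.3 and 9.54 CPM in control ASO libraries 1 to 5. Library 6 was the highest and control ASO library 2 was above the lowest Mboat7 ASO library, which was 0.886 times its level, the deepest overlap among the 10 genes. Cdh5 rose with a log2 fold change of 0.67 ± 0.17 (SE, edgeR FDR 0.0121).

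Kdr encodes the main signalling receptor for VEGF-A on endothelium. It had 29.8, 26, 23.7, 25.4 and 20.3 CPM in Mboat7 ASO libraries 6 to 10, against 15, 21.5, 17.6, 15.8 and 16.7 CPM in control ASO libraries 1 to 5. Apart from library 10, the Mboat7 ASO libraries exceeded every control. Kdr rose with a log2 fold change of 0.53 ± 0.12 (SE, edgeR FDR 0.00587).

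Tek encodes TIE2, the receptor for angiopoietins. It had 8.72, 8.34, 7.09, 7.26 and 6.08 CPM in Mboat7 ASO libraries 6 to 10, against 4.85, 6.4, 5.71, 4.86 and 5.47 CPM in control ASO libraries 1 to 5. Again only library 10 fell within the range of the controls. Tek rose with a log2 fold change of 0.46 ± 0.12 (SE, edgeR FDR 0.0134), a 1.37-fold rise and the smallest among the 9 genes that passed.

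Eng encodes endoglin, a coreceptor for BMP9 and BMP10. It had 59.6, 50.9, 54.1, 54.8 and 51.4 CPM in Mboat7 ASO libraries 6 to 10, against 31.4, 49.1, 34.8, 32.4 and 30.2 CPM in control ASO libraries 1 to 5. The Mboat7 ASO libraries were close to each other, and 4 of the controls were likewise close to each other well below them, while library 2 came near the Mboat7 ASO group without reaching it. The log2 fold change was 0.61 ± 0.12 (SE, edgeR FDR 0.00436), and the means were 54.2 ± 3.48 CPM in Mboat7 ASO livers and 35.6 ± 7.74 CPM in control ASO livers (SD, n = 5 each). Eng shares 61 bases of exon with Fpgs on the opposite strand.

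Egfl7 encodes a secreted protein of the endothelial matrix, and its locus hosts microRNA genes. It had 31, 24.5, 25.3, 24.4 and 22.9 CPM in Mboat7 ASO libraries 6 to 10, against 16.6, 21.8, 22.6, 24.2 and 15.5 CPM in control ASO libraries 1 to 5. Library 6 stood above the other Mboat7 ASO libraries, which lay next to control ASO library 4. The log2 fold change was 0.35 ± 0.13 (SE, edgeR FDR 0.0536), which did not pass. Without control ASO library 4 it was 0.42 (edgeR FDR 0.0313). It moved the other way without control ASO library 1 (0.29, edgeR FDR 0.116), control ASO library 5 (0.27, edgeR FDR 0.106) or Mboat7 ASO library 6 (0.26, edgeR FDR 0.134). Its exons share 264 bases with Gm20532 on the same strand and 64 bases with Agpat2 on the opposite strand, and they also overlap Mir126a over 73 bases of the same strand and Mir126b over 58 bases of the opposite strand. How far these overlaps affect its count was not tested.

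**Figure D2:**
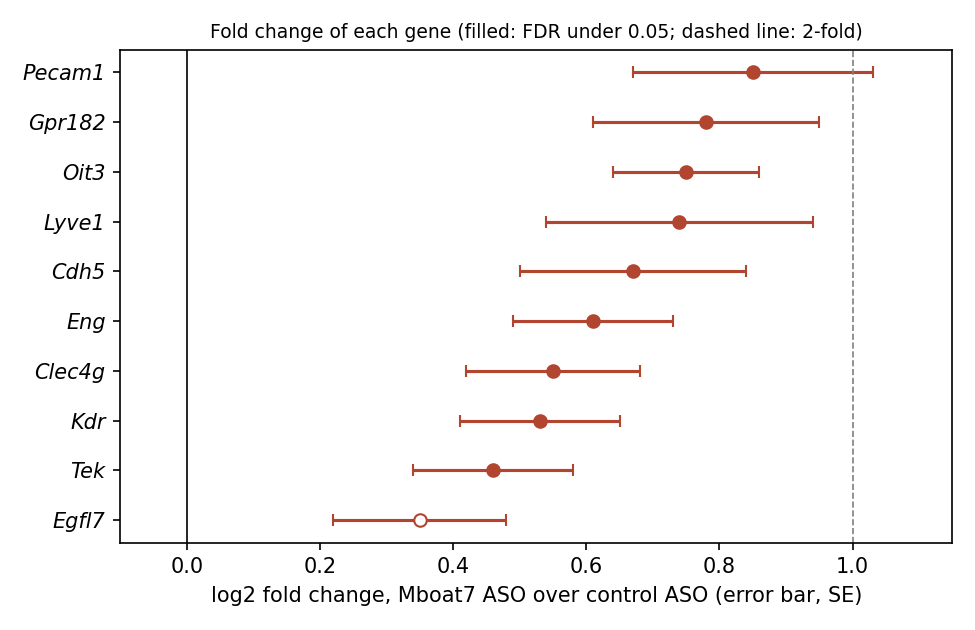
Log2 fold change of Mboat7 ASO over control ASO for each of the 10 genes (points) with its SE (error bars), filled where the edgeR FDR was under 0.05, with a dashed line at 2-fold. Estimates run between 0.35 for Egfl7 and 0.85 for Pecam1, and all lie to the right of 0 and to the left of 2-fold.

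The genes varied together from library to library within a group. Library 6 was the highest Mboat7 ASO library for 9 of the 10 genes, all but Lyve1, and library 10 was the lowest for 7. Among the controls, library 2 was the highest for 8 genes, library 5 the lowest for 6 and library 1 the lowest for 4. As the geometric mean over the 10 genes of the fold over the control ASO mean, Mboat7 ASO libraries 6 to 10 stood at 1.82, 1.54, 1.54, 1.51 and 1.29, against 0.849, 1.27, 0.988, 1.02 and 0.842 in control ASO libraries 1 to 5. The lowest Mboat7 ASO library was thus next to the highest control.

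Groups did not overlap for 3 of the 10 genes (Clec4g, Oit3 and Eng), against 10.5% of all genes in that direction. Without control ASO library 2 the count was 9 of 10, all but Egfl7, against 19.3% of all genes. Without Mboat7 ASO library 10 the count was also 9, but of a different set, all but Lyve1, against 11.6% of all genes. These counts without a library were made after the values were seen. The 9 genes that passed the test with all libraries did so with each library left out in turn, and the median of the 10 log2 fold changes then ran from 0.55 without Mboat7 ASO library 6 to 0.79 without control ASO library 2.

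**Figure D3:**
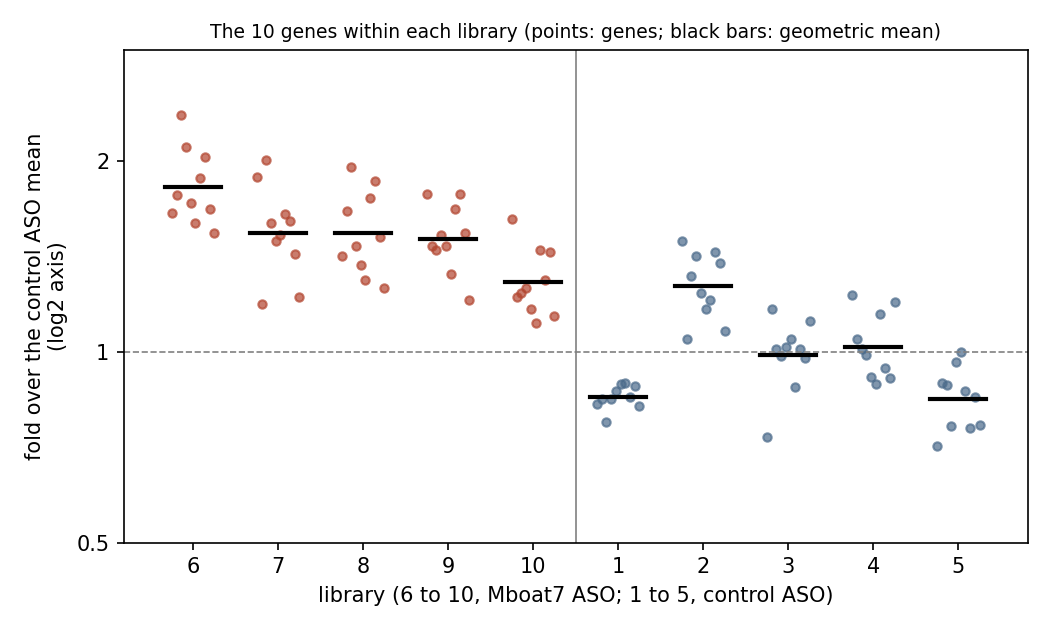
Each gene's CPM divided by its control ASO mean (points, log2 axis), by library, Mboat7 ASO libraries 6 to 10 on the left and control ASO libraries 1 to 5 on the right, with black bars at the geometric mean over the 10 genes. The bars run between 1.29 and 1.82 in Mboat7 ASO libraries and between 0.842 and 1.27 in control ASO libraries.

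Levels of different genes were set side by side per kilobase of merged exon. In Mboat7 ASO livers the order was Clec4g (19.7 ± 3.54 CPM per kb), Eng (13.4 ± 0.859), Egfl7 (7.15 ± 0.877), Oit3 (6.87 ± 0.654), Cdh5 (4.73 ± 0.938), Lyve1 (4.27 ± 0.453), Pecam1 (3.47 ± 0.872), Gpr182 (3.05 ± 0.494), Kdr (2.77 ± 0.387) and Tek (1.59 ± 0.223 CPM per kb, SD, n = 5). Clec4g, Eng and the third in order were separate from each other in all libraries, and Tek lay below all libraries of Kdr, whereas the ranges of the neighbours between Egfl7 and Kdr overlapped. In control ASO livers Clec4g (13.4 ± 1.78 CPM per kb), Eng (8.79 ± 1.91), Egfl7 (5.62 ± 1.08) and Oit3 (4.08 ± 0.674) again led, with Tek (1.16 ± 0.137 CPM per kb, SD, n = 5) again last, and there the ranges of Clec4g and Eng overlapped.

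The count of each gene was next set against the summed count of 30 other pan-endothelial genes of the same library. In that ratio every Mboat7 ASO library was above every control ASO library for 1 of the 10 genes, against 1.75% of all genes tested. Oit3 was at 6.47 ± 0.213% of the summed count in Mboat7 ASO livers, against 4.99 ± 0.662% in control ASO livers (SD, n = 5 each), without overlap. Egfl7 was at 8.65 ± 0.389% in Mboat7 ASO livers and 8.81 ± 1.43% in control ASO livers. S1pr1, which alone made up 13.8 ± 1.49% of that sum in Mboat7 ASO livers and 27.5 ± 7.34% in control ASO livers, was itself lower in Mboat7 ASO livers. With S1pr1 left out of the sum, which was chosen after its values were seen, Oit3 was at 7.52 ± 0.366% in Mboat7 ASO livers and 6.89 ± 0.775% in control ASO livers, and no gene of the 10 was without overlap, against 0.864% of all genes tested. How far cells other than endothelium add to either sum was not tested.

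The rise extended to other endothelial genes. List counts here and below stand against 21.2% of all genes tested that rose and 17.3% that fell. Among 12 further genes of sinusoidal uptake and identity, 8 rose and none fell, with a median log2 fold change of 0.53 against 0.01 for all genes. Stab1, a scavenger receptor, averaged 53.1 ± 5.78 CPM in Mboat7 ASO livers and 32.7 ± 6.1 CPM in control ASO livers (log2 fold change 0.70 ± 0.12 SE, edgeR FDR 0.0028), and Fcgr2b, an inhibitory Fc receptor, and Mrc1, the mannose receptor, had log2 fold changes of 0.70 ± 0.12 (edgeR FDR 0.00257) and 0.66 ± 0.14 (edgeR FDR 0.006). Stab2, the scavenger receptor for hyaluronan that defines this endothelium, had 44.6 to 61 CPM in Mboat7 ASO libraries and 28.9 to 48.8 CPM in control ASO libraries, and its log2 fold change of 0.29 ± 0.13 did not pass (edgeR FDR 0.0889). Gata4, a transcription factor of sinusoidal identity chosen after its values were seen, had a log2 fold change of -0.22 ± 0.12 (edgeR FDR 0.156). Stab1 and Mrc1 are also made by macrophages, whose markers rose as described below.

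Of 29 pan-endothelial genes kept of 30, 20 rose and 1 fell, with a median log2 fold change of 0.70. Adgrl4, an adhesion receptor, averaged 15.8 ± 1.49 CPM in Mboat7 ASO livers and 9.62 ± 1.24 CPM in control ASO livers (log2 fold change 0.72 ± 0.10 SE, edgeR FDR 0.00175). Arhgef15, an endothelial exchange factor, and Clec14a, a surface protein of endothelium, had log2 fold changes of 0.95 ± 0.13 (edgeR FDR 0.00177) and 0.73 ± 0.12 (edgeR FDR 0.0028). S1pr1, the receptor for sphingosine-1-phosphate, was the exception that fell, with 35.5 to 48.3 CPM in Mboat7 ASO libraries against 37.6 to 76.5 CPM in control ASO libraries (log2 fold change -0.60 ± 0.16 SE, edgeR FDR 0.0139). Some genes of this list, named after their values were seen, were highest in libraries 6, 7 and 8, as leukocyte markers were. Fli1 had 4.96, 4.19 and 4.05 CPM there, against 2.93 and 2.86 CPM in libraries 9 and 10. Lmo2 had 7.66, 6.34 and 6.13 CPM against 4.77 and 4.37 CPM. Adgrl4 did not share that order, with 18.1, 15.4 and 15.7 CPM against 15.8 and 14 CPM. The part of leukocytes in this list was not tested.

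Genes of continuous capillaries and large vessels rose in 7 of 11 kept of 16, and none fell, with a median log2 fold change of 0.95. Cd34, a sialomucin of continuous endothelium that is also found on fibroblasts, averaged 4.62 ± 1.24 CPM in Mboat7 ASO livers and 1.64 ± 0.521 CPM in control ASO livers (log2 fold change 1.49 ± 0.24 SE, edgeR FDR 0.00246). Vwf, which encodes von Willebrand factor, had 9.37 to 16.3 CPM in Mboat7 ASO libraries against 5.8 to 7.83 CPM in control ASO libraries (log2 fold change 0.92 ± 0.16 SE, edgeR FDR 0.00312). Ednrb, an endothelin receptor that stellate cells carry too, had a log2 fold change of 1.08 ± 0.20 (edgeR FDR 0.00331). The endothelial genes Aplnr, Sele and Apln had at most 0.151, 0.722 and 0.264 CPM in any library and were not tested. Summed over libraries, Sele had 55 counts in the Mboat7 ASO group, 23 of them in library 6, against 11 in the control ASO group. Aplnr had 11 against 6 counts and Apln 22 against 15. The difference in fold change between these genes and the 10 genes described here was not tested.

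Along the sinusoid, 4 of 5 central vein genes rose and 1 of 4 portal and periportal genes rose, and none fell in either list. Of all genes tested, 21.2% rose, which is near the portal share, and the difference between these short lists was not tested. Rspo3, an enhancer of Wnt signals from the central vein, had 5.17 to 6.34 CPM in Mboat7 ASO libraries against 3.55 to 4.69 CPM in control ASO libraries (log2 fold change 0.55 ± 0.11 SE, edgeR FDR 0.00496). Kit, a receptor tyrosine kinase of central vein endothelium and mast cells, had a log2 fold change of 0.74 ± 0.15 (edgeR FDR 0.00497). The Wnt ligands Wnt2 and Wnt9b had log2 fold changes of 0.74 ± 0.23 (edgeR FDR 0.0263) and 1.24 ± 0.37 (edgeR FDR 0.0229). The call of Wnt9b was lost without control ASO library 3 (edgeR FDR 0.0539) or 4 (0.0511), and that of Wnt2 without control ASO library 1 (edgeR FDR 0.0581) or Mboat7 ASO library 8 (0.0624) or 10 (0.0662). The portal gene that rose was Dll4, described with the Notch genes. Of lymphatic genes Ccl21a had no count in any library and Pdpn had at most 0.956 CPM, while Reln, which stellate cells also express, rose by a log2 fold change of 0.69 ± 0.10 (edgeR FDR 0.00186).

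**Figure D4:**
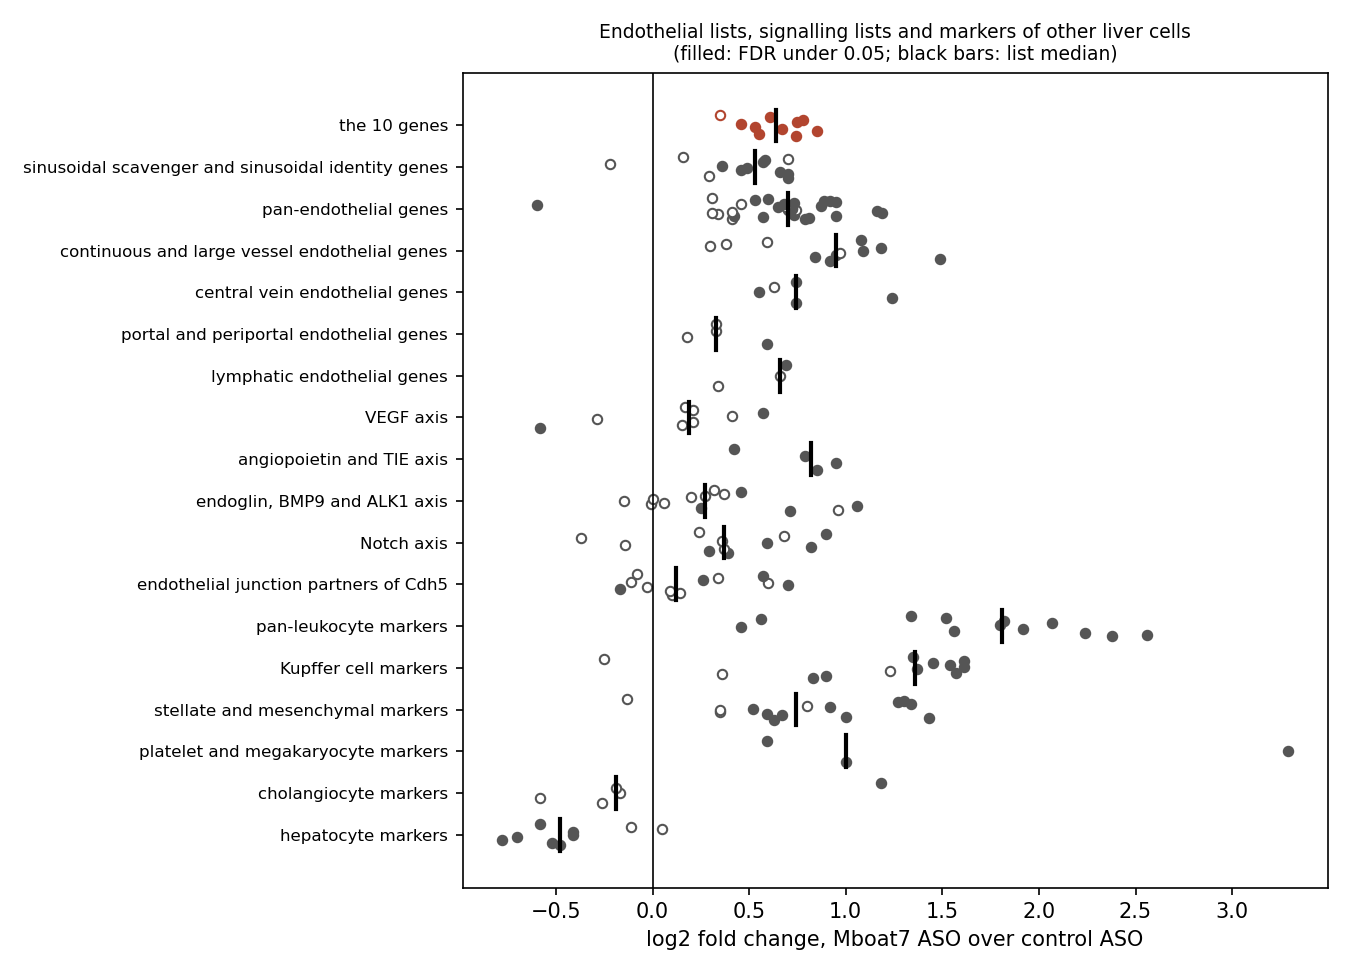
Log2 fold change of Mboat7 ASO over control ASO for every kept gene of each list (points, filled where the edgeR FDR was under 0.05), with a black bar at the list median. The 10 genes (red) have a median of 0.64, the 6 lists of other endothelial cell genes between 0.33 and 0.95, leukocyte markers at 1.81 and hepatocyte markers at -0.48.

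The ligands and partners of the receptors were examined in turn. In the VEGF axis, to which Kdr belongs, 1 of 8 genes kept rose and 1 fell, against 21.2% and 17.3% of all genes tested. Vegfa, the ligand of Kdr and made largely by hepatocytes in this organ, had 119 to 144 CPM in Mboat7 ASO libraries against 158 to 242 CPM in control ASO libraries, without overlap, a log2 fold change of -0.58 ± 0.10 (SE, edgeR FDR 0.00323). Receptor and ligand thus moved in opposite directions. Hepatocyte markers, described below, had a median log2 fold change of -0.48, against 0.64 for the 10 genes. The part of the balance between cell types in this difference was not tested. Flt4, the receptor for VEGF-C, rose by a log2 fold change of 0.57 ± 0.14 (edgeR FDR 0.00839), whereas Flt1, the decoy receptor, and Nrp1, a coreceptor, had log2 fold changes of 0.41 ± 0.19 (edgeR FDR 0.103) and 0.21 ± 0.13 (edgeR FDR 0.205).

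In the angiopoietin axis, to which Tek belongs, all 4 genes kept rose. Tie1, the partner receptor of TIE2, averaged 15.9 ± 1.51 CPM in Mboat7 ASO livers and 9.16 ± 2.26 CPM in control ASO livers (log2 fold change 0.79 ± 0.15 SE, edgeR FDR 0.00337). Ptprb, a phosphatase that restrains TIE2, had a log2 fold change of 0.42 ± 0.08 (edgeR FDR 0.00417), a call lost when a trend with gene length was removed (edgeR FDR 0.0565). The ligands were low. Angpt1, the agonist, had 0.816 to 1.65 CPM in Mboat7 ASO libraries against 0.532 to 0.785 CPM in control ASO libraries (log2 fold change 0.85 ± 0.25 SE, edgeR FDR 0.0222), and Angpt2, which depends on context, had 1.32 to 2.08 CPM in Mboat7 ASO libraries against 0.38 to 1.39 CPM in control ASO libraries (log2 fold change 0.95 ± 0.34 SE, edgeR FDR 0.0487). The call of Angpt1 was lost without Mboat7 ASO library 8 (edgeR FDR 0.0567) or 10 (0.0551), and that of Angpt2 with any of control ASO libraries 1, 4 and 5 or Mboat7 ASO libraries 6, 7, 8 and 10 left out (edgeR FDR 0.0649 to 0.0993).

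In the endoglin, BMP9 and ALK1 axis, 4 of 13 genes kept rose and none fell, against 21.2% and 17.3% of all genes tested. Tgfbr2, the type II receptor for TGF-beta, which many cell types express, averaged 60 ± 6.32 CPM in Mboat7 ASO livers and 28.8 ± 8.28 CPM in control ASO livers (log2 fold change 1.06 ± 0.16 SE, edgeR FDR 0.00205). Gdf2, which encodes BMP9, the ligand of endoglin, and is made in liver by stellate cells, had 13.9 to 19.6 CPM in Mboat7 ASO libraries against 8.29 to 14.6 CPM in control ASO libraries (log2 fold change 0.71 ± 0.16 SE, edgeR FDR 0.00625). Bmpr2, the type II receptor for BMPs, had a log2 fold change of 0.25 ± 0.05 (edgeR FDR 0.00529), which was -0.00 when a trend with gene length was removed. Acvrl1, which encodes ALK1, the signalling partner of endoglin, had a log2 fold change of 0.96 ± 0.36 that did not pass (edgeR FDR 0.0556), and that passed without control ASO library 2 (1.38, edgeR FDR 0.00498) or Mboat7 ASO library 9 (1.13, edgeR FDR 0.0261). The targets Id1, Id3 and Smad6, chosen after their values were seen, did not pass, with log2 fold changes of 0.27 ± 0.36 (edgeR FDR 0.573), 0.37 ± 0.43 (edgeR FDR 0.517) and -0.00 ± 0.12 (edgeR FDR 0.98).

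Among Notch genes, 5 of 11 kept rose and none fell, against 21.2% and 17.3% of all genes tested. Notch4, the endothelial receptor, had 3.12 to 4.55 CPM in Mboat7 ASO libraries against 1.33 to 3.22 CPM in control ASO libraries (log2 fold change 0.82 ± 0.21 SE, edgeR FDR 0.0117). Notch1 and Notch2, which other liver cells express too, had log2 fold changes of 0.39 ± 0.11 (edgeR FDR 0.0151) and 0.29 ± 0.08 (edgeR FDR 0.0173), and both calls were lost when the trend with gene length was removed (edgeR FDR 0.214 and 0.209). Dll4, the endothelial ligand, had a log2 fold change of 0.59 ± 0.21 (edgeR FDR 0.0446), a call that was lost with any library left out except control ASO library 2 or Mboat7 ASO library 9 (edgeR FDR 0.0619 to 0.107).

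Of 12 junction genes that work beside VE-cadherin, 3 rose and 1 fell, against 21.2% and 17.3% of all genes tested. Jam2, a junctional adhesion molecule of endothelium, Tjp1, a scaffold of tight junctions in many cells, and Esam, an endothelial adhesion molecule, had log2 fold changes of 0.70 ± 0.13 (edgeR FDR 0.00392), 0.26 ± 0.05 (edgeR FDR 0.00552) and 0.57 ± 0.15 (edgeR FDR 0.0146). Jup, which encodes plakoglobin and is shared with epithelium, fell by 0.17 on the log2 scale (edgeR FDR 0.0452), and that call was lost with any of control ASO libraries 1, 3 and 5 or Mboat7 ASO libraries 6, 8, 9 and 10 left out (edgeR FDR 0.0619 to 0.107).

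Markers of the other liver cells moved with the group as well. All 12 pan-leukocyte markers rose (median log2 fold change 1.81), and their summed level was 213 to 538 CPM in Mboat7 ASO libraries against 145 to 223 CPM in control ASO libraries. The lowest p in this list belonged to Itgb2, an integrin chain, Ptprc, which encodes CD45, and Cd53, a tetraspanin, at log2 fold changes of 2.56 ± 0.46 (edgeR FDR 0.00316), 2.38 ± 0.44 (edgeR FDR 0.00342) and 2.24 ± 0.44 (edgeR FDR 0.00418). Of 12 Kupffer cell markers 9 rose, with a summed level of 265 to 863 CPM in Mboat7 ASO libraries against 154 to 341 CPM in control ASO libraries, and the lowest p belonged to the complement gene C1qc (1.54 ± 0.33, edgeR FDR 0.00561), Cd5l (1.57 ± 0.34, edgeR FDR 0.00585) and the folate receptor Folr2 (1.45 ± 0.32, edgeR FDR 0.00624). Other Kupffer cell markers, chosen after their values were seen, were split. Clec4f (0.83 ± 0.26, edgeR FDR 0.0272) and Vsig4 (0.90 ± 0.23, edgeR FDR 0.0111) rose. Timd4 (0.36 ± 0.54, edgeR FDR 0.616), Marco (1.23 ± 0.75, edgeR FDR 0.208) and Cd163 (-0.25 ± 0.56, edgeR FDR 0.749) did not pass. In Mboat7 ASO library 6, which had the highest Kupffer cell sum, Timd4 (0.973 CPM) and Cd163 (0.722 CPM) were below every control ASO library (at least 1.22 CPM of Timd4 and 3.21 CPM of Cd163). Clec4f (84.5 CPM) and Vsig4 (18.2 CPM) were above every control ASO library there (at most 51.4 CPM of Clec4f and 12 CPM of Vsig4). Of 14 stellate and mesenchymal markers 10 rose, with a summed level of 429 to 685 CPM in Mboat7 ASO libraries against 224 to 425 CPM in control ASO libraries, and the lowest p belonged to the matrix genes Dcn (1.0 ± 0.18, edgeR FDR 0.0031) and Lum (1.34 ± 0.24, edgeR FDR 0.0031) and the collectin Colec11 (0.92 ± 0.18, edgeR FDR 0.00403). The others of this list, named after their values were seen, did not pass. They were Acta2 (-0.13 ± 0.40, edgeR FDR 0.816), Des (0.35 ± 0.19, edgeR FDR 0.161), Hand2 (0.35 ± 0.20, edgeR FDR 0.179) and Ngfr (0.80 ± 0.34, edgeR FDR 0.081).

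The platelet and megakaryocyte list was mostly near 0. Of its 9 genes 3 were kept and all 3 rose, with a summed level of 4.21 to 15.7 CPM in Mboat7 ASO libraries against 3.14 to 4.89 CPM in control ASO libraries. They were Ppbp (3.29 ± 0.68, edgeR FDR 0.00496), Itga2b (0.59 ± 0.21, edgeR FDR 0.0429) and Pf4 (1.0 ± 0.36, edgeR FDR 0.0456), and the calls of Itga2b and Pf4 were lost with any of control ASO libraries 1, 3, 4 and 5 or Mboat7 ASO libraries 6, 7 and 8 left out (edgeR FDR 0.0622 to 0.107). By limma-voom none of the 3 passed (FDR 0.0766 to 0.0891). The defining platelet genes Gp9, Gp1bb, Gp1ba and Gp6 had at most 0.753 CPM and were not tested, but most of their counts were in Mboat7 ASO libraries. Summed over libraries, Gp9 had 52 counts in the Mboat7 ASO group against 4 in the control ASO group, Gp1ba 60 against 5, Gp1bb 21 against 1 and Gp6 12 against 1. Most of the counts of these 4 genes were in libraries 6, 7 and 8, where Pecam1 was highest. For Gp1ba the groups did not overlap, but only by 3 counts in Mboat7 ASO library 10 against 2 in control ASO libraries 2 and 3. Gp5, also not tested, did not overlap either, with 69 counts against 26. Of all genes tested, 10.5% were without overlap in that direction. Of 7 cholangiocyte markers 5 were kept and only Spp1, which macrophages also make, rose (1.18 ± 0.28, edgeR FDR 0.00839), while Cftr was at most at 0.229 CPM. Spp1 made up most of the summed level of that list, with 67.8 to 170 CPM in Mboat7 ASO libraries against 30 to 65.7 CPM in control ASO libraries. The other 4 kept, among them Krt19, did not pass, with log2 fold changes of -0.58 to -0.17, and the list median was -0.19.

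Hepatocyte markers moved the other way. Of 9 kept of 10, 7 fell and none rose, with a median log2 fold change of -0.48 and a summed level of 84200 to 124000 CPM in Mboat7 ASO libraries against 134000 to 154000 CPM in control ASO libraries. The lowest p belonged to the plasma protein genes Apoc3 (-0.70 ± 0.10, edgeR FDR 0.00177), Ttr (-0.52 ± 0.08, edgeR FDR 0.00205) and Apoa1 (-0.78 ± 0.14, edgeR FDR 0.00292). The kept markers that did not pass, named after their values were seen, were Hnf4a (0.05 ± 0.13, edgeR FDR 0.761) and Cps1 (-0.11 ± 0.18, edgeR FDR 0.655). Alb made up most of the summed level, with 59500 to 93400 CPM in Mboat7 ASO libraries against 93400 to 107000 CPM in control ASO libraries. Ass1, a urea cycle gene, had only 16 counts over the Mboat7 ASO libraries and 32 over the control ASO libraries and was not kept, and the cause of that low count was not tested.

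**Figure D5:**
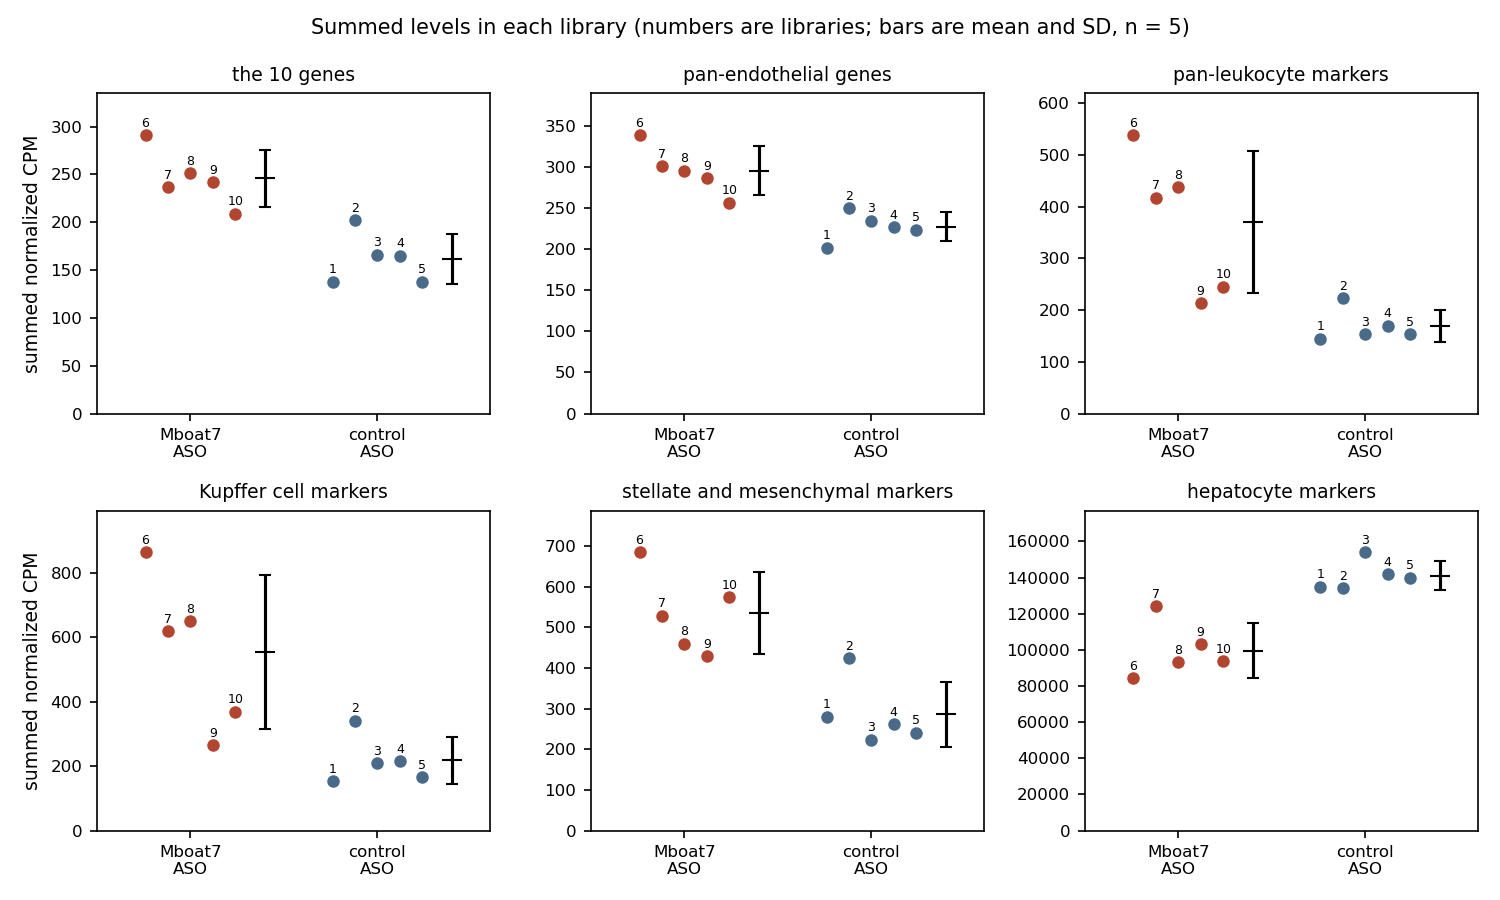
Summed normalized CPM of the 10 genes, of pan-endothelial genes and of 4 marker lists in each library, Mboat7 ASO on the left and control ASO on the right of every panel, with numbers naming the libraries and black bars giving mean and SD (n = 5). Leukocyte and Kupffer cell markers separate libraries 6, 7 and 8 from libraries 9 and 10, while the summed level of the 10 genes is 291, 237, 251, 242 and 209 CPM in libraries 6 to 10 and at most 202 CPM in the controls.

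The library pattern of the 10 genes was then set beside these lists. Their summed level was 291, 237, 251, 242 and 209 CPM in Mboat7 ASO libraries 6 to 10, against 138, 202, 166, 165 and 138 CPM in control ASO libraries 1 to 5. Mboat7 ASO library 9, whose pan-leukocyte sum (213 CPM) was below that of control ASO library 2 (223 CPM), had 242 CPM of the 10 genes against 202 CPM in that control. Its Kupffer cell sum, at 265 CPM, was also below that of control ASO library 2, at 341 CPM. Its stellate sum was slightly above (429 CPM against 425 CPM), and its hepatocyte sum was lower (103000 CPM against 134000 CPM). Mboat7 ASO library 6 had the highest sum of the 10 genes. It also had the highest pan-leukocyte (538 CPM), Kupffer cell (863 CPM) and stellate (685 CPM) sums and the lowest hepatocyte sum (84200 CPM). Control ASO library 2, the control with the highest level for most of the 10 genes, was also the highest control for pan-leukocyte, Kupffer cell, stellate and platelet sums, and its hepatocyte sum, at 134000 CPM, was the lowest of the controls. The part of the balance between cell types in the levels of the 10 genes was not tested.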

How the data were processed

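The authors prepared directional mRNA libraries from liver RNA and sequenced 10 of them with single-end reads of 50 bp. Per the methods and the submitters' processing notes, reads were trimmed with Trim Galore 0.3.3, checked with FastQC 0.11.3 and aligned to mm10 with STAR, using UCSC annotations and counted per gene by STAR. The deposited table gives raw counts by symbol, not normalized. The sources used here do not give the counted strand. Another 10 per-sample columns of the table match no label and were not used.

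Genes reaching 1 CPM in at least 1 library were kept (12609 of 24411; 48.3% removed), normalized by upper quartile and tested for Mboat7 ASO against control ASO by edgeR 4.0.16's quasi-likelihood test with Benjamini-Hochberg adjustment (FDR 0.05, R 4.3.3). The SE is the log2 fold change divided by the root of its F statistic. The biological coefficient of variation was 0.166. Totals of 25153235 to 28791798 counts make 1 count worth at most 0.0398 CPM. Coordinates and exon lengths came from GENCODE on GRCm38, the assembly of mm10. The script was tested on simulated data. Alternatives changed the normalization, filter, test (likelihood ratio, limma 3.58.1 voom, DESeq2 1.42.0) or thresholds, removed a gene-length trend, or left out libraries. The 10 genes and all lists were chosen with earlier results of these data known. The text names the 10 genes, Mboat7, a set of ligands and receptors, up to 3 genes of lowest p per list and direction, and markers near 0. Other names were chosen after their values were seen.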

Additional observations from a re-analysis of the deposited data

Results flagged for a closer look

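Of 56 groups of 5 libraries examined, 7 had a library whose gap to its nearest neighbour exceeded Dixon's limit of 0.71 of the range, and chance alone flags about 1 in 20 groups. Control ASO library 2 held 4 of the 7. It was the highest control for Eng, at 49.1 CPM with the next at 34.8 CPM, and for the summed levels of continuous and large vessel genes (111 CPM, next 64.8), portal and periportal genes (44.9 CPM, next 28.3) and stellate and mesenchymal markers (425 CPM, next 280). Control ASO library 5 was the highest control for lymphatic genes (107 CPM, next 82.8), a sum to which Prox1, which hepatocytes also express, and Reln contribute. Mboat7 ASO library 6 was the highest for the endoglin, BMP9 and ALK1 axis (285 CPM, next 264), and Mboat7 ASO library 7 the lowest for central vein genes (14.2 CPM, next 18.4).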

How the results depend on the processing

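For the 10 genes, 204 of 210 comparisons with an alternative kept their direction and their side of the threshold, and the other 6 were Egfl7 passing (edgeR FDR 0.0131 with no normalization factor, 0.037 by the likelihood ratio test, 0.0446 by limma-voom, 0.0469 with the gene-length trend removed, 0.0448 by DESeq2 and 0.0313 without control ASO library 4). All of these comparisons used an FDR limit of 0.05. At an FDR limit of 0.01, 6 of the 10 rose, and Lyve1, Cdh5, Tek and Egfl7 did not pass. Requiring more than 2-fold left 0 of the 10. The number without overlap was 3 to 9 with a library left out, against 11 to 19.3% of all genes, and the median log2 fold change of the 10 was 0.55 to 0.80 over all settings. With S1pr1 left out, 0 genes were without overlap as a share of pan-endothelial counts. With no normalization factor 4670 genes rose and 772 fell, 85.8% of calls being higher against 55% with upper quartile factors, and the median of all genes shifted by 0.159. Among the other genes named, 62 comparisons lost a call, 10 gained one and 1 reversed, Bmpr2 at -0.0036 (edgeR FDR 0.961) with the gene-length trend removed. Stab2, Flt1 and Nrp1 passed only with no normalization factor. The causes were not tested. No paired analysis was possible because the groups share no replicate number.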
